A study of Rattus norvegicus with 6 samples.

Results

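Most mitochondrial mRNAs and tRNAs of the rat are encoded on one strand of the mitochondrial genome, and 8 tRNAs lie on the opposite strand, those for Gln, Ala, Asn, Cys, Tyr, Glu and Pro and the serine tRNA with the anticodon TGA. Fragments of these 8 tRNAs were followed in small RNA libraries from the hippocampus of Sprague-Dawley rats aged 6 to 8 weeks, of which 3 had received saline and 3 nicotine, with 1 library for each numbered rat. Strain, tissue and age were shared by both groups, and the sources used here do not give the dose, route or duration of the nicotine treatment. Every listed fragment reached 20 CPM in some library of either group, so the list itself depends on level. From that list fragments were taken by name, as every one assigned to the mitochondrial genome and to 1 of the 8 tRNAs. This gave 58 of the 615 listed fragments, and 58 of the 135 mitochondrial ones. They divided into 15 of Gln-TTG, 9 of Cys-GCA, 9 of Pro-TGG, 7 of Ala-TGC, 6 of Asn-GTT, 6 of Ser-TGA, 5 of Tyr-GTA and 1 of Glu-TTC. The values cover tRNA fragments alone, so the tissue label was not checked against marker genes.

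Mitochondrial tRNAs are made as parts of long transcripts that run along each strand, and they are cut out by RNase P at the 5' end and by ELAC2, the mitochondrial RNase Z, at the 3' end before the CCA tail is added. The transcript that holds the opposite-strand tRNAs carries the mRNA of ND6, a subunit of respiratory complex I, and otherwise runs antisense to the other mitochondrial genes. The Ala, Asn, Cys and Tyr tRNAs lie next to each other around the origin of light-strand replication, and the Pro tRNA lies at the edge of the control region. Fragments named from base 1 hold the 5' end of the mature tRNA, those that run to its last base are 3' fragments, and trailers, written +1:T, hold the sequence just past the tRNA that 3' processing removes. The name tiRNA is used in the files for fragments cut in or near the anticodon loop, a product that the nuclease angiogenin makes from cytosolic tRNAs under stress.

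The values are CPM, reads scaled to the total of each library, and each read is a whole fragment, so levels were not divided by length. Library totals were 154414 to 374763 reads with saline and 90828 to 128694 with nicotine, so 1 read was worth 2.67 to 11.01 CPM. The 3 nicotine libraries were the shallowest of the 6, so that an effect of depth and one of treatment cannot be told apart. Every fragment came up to 20 CPM somewhere among the libraries, which took 8 reads in saline 1 and 2 reads in nicotine 1. Of the 58 fragments, 26 did so in 1 library only, which was nicotine 1 for 21 of them. In whole tissue, fewer cells that hold a fragment and less of it per cell cannot be told apart.

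Together the 58 fragments were a small part of the listed reads, and they were led by one tRNA, that of glutamine. Their sum was 2836 CPM in saline 1, 4391 CPM in saline 2 and 3331 CPM in saline 3, and 4844 CPM in nicotine 1, 4465 CPM in nicotine 2 and 4864 CPM in nicotine 3. As CPM on the library totals the groups did not overlap, with saline 2 and nicotine 2 close to each other. The sum holds the 21 fragments that reached 20 CPM in nicotine 1 alone, and it was not compared without them. The same holds for the shares below. The other mitochondrial fragments had mean sums of 8216 CPM with saline and 12703 CPM with nicotine, with overlap. As a share of the listed reads the 58 fragments held 0.589% ± 0.160 with saline and 0.932% ± 0.135 with nicotine (SD, n = 3 each), again without overlap. The nearest libraries were saline 2 at 0.723% (95% Wilson interval 0.671 to 0.779) and nicotine 2 at 0.778% (0.716 to 0.846), whose intervals overlap. The listed reads are mostly glycine tRNA fragments. With those left out the shares were 2.84% ± 0.437 and 3.53% ± 0.0269 (SD, n = 3 each), without overlap of the values. Saline 2 had 3.346% here, and its 95% Wilson interval, 3.107 to 3.603, holds all 3 nicotine values. Counting error alone thus does not set saline 2 apart from them. The Wilson interval of nicotine 1 was 3.243 to 3.896, far wider than the nicotine SD. Within the mitochondrial reads alone the opposite-strand fragments took 28.3% to 31.1% with saline and 21.2% to 33.3% with nicotine, and the groups overlapped. Nicotine 1 gave the lowest of these shares.

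The 8 tRNAs differed widely in level. Fragments of Gln-TTG, the tRNA that reads glutamine codons, had a mean of 2298 CPM over the 6 libraries (range 1644 to 2743). Tyr-GTA followed at 574 CPM (280 to 870), Pro-TGG at 422 CPM (326 to 490) and Asn-GTT at 341 CPM (243 to 495). Gln-TTG lay above Tyr-GTA in 6 of 6 libraries, while Tyr-GTA lay above Pro-TGG in 4 and Pro-TGG above Asn-GTT in 5. Cys-GCA had 256 CPM (141 to 440) and lay below Asn-GTT in 4 of 6 libraries, so the order of these 4 middle tRNAs was not fixed. Ala-TGC at 141 CPM (93.4 to 231), Ser-TGA at 77.1 CPM (40.9 to 176) and Glu-TTC at 12.8 CPM (0 to 22.02) followed in that order in 6 of 6 libraries. Over all libraries Glu-TTC had 14 reads and Ser-TGA had 70, against 2281 for Gln-TTG, so the lowest tRNAs carry the largest counting error.

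**Figure D1:**
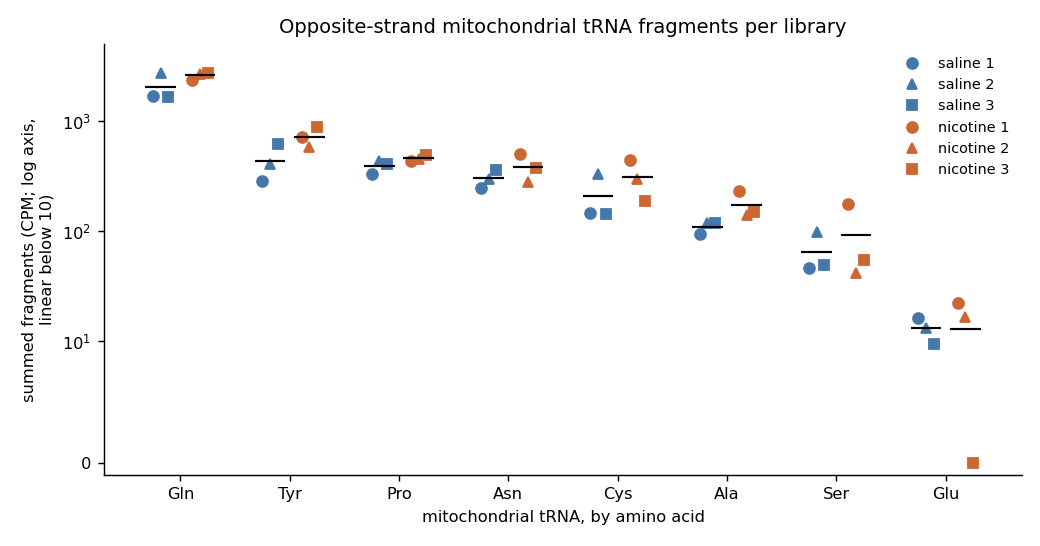
Summed CPM of all fragments of each opposite-strand mitochondrial tRNA (x axis) on a log axis that is linear below 10 CPM. Points are single libraries, blue for saline and orange for nicotine, and bars are group means. Gln lies at 1644 CPM or above in every library and Glu at or below 22.02 CPM, with nicotine 3 at 0.

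The 8 tRNAs supplied very different parts of all fragments of their amino acids. For asparagine the mitochondrial tRNA gave 45.9% to 65.7% of the reads over the 6 libraries, for proline 37.4% to 59.1% and for glutamine 29.7% to 45.2%. For tyrosine and cysteine the shares were 15.2% to 27.5% and 9.41% to 22.6%. Ala-TGC gave 1.32% to 2.25% of the alanine reads and Glu-TTC 0% to 0.202% of the glutamate reads. Ser-TGA gave 0.568% to 1.61% of the serine reads, which also hold those of the other mitochondrial serine tRNA, Ser-GCT. Saline and nicotine libraries overlapped for all 8 of these shares.

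Of the 58 fragments, 45 started at base 1, 11 ended at the 3' end and 2 were trailers, and none was internal. By reads the 5' fragments took 97.4% ± 1.02 with saline and 95.8% ± 5.06 with nicotine (SD, n = 3 each), with the lowest share, 90.0%, in nicotine 1. Most of them were long. Those of 28 to 33 nt took 77.0% to 85.6% of the opposite-strand reads, those of 20 to 24 nt took 7.57% to 12.5%, and those of 14 to 16 nt took 4.32% to 6.70%. No 5' fragment of the 8 tRNAs had a length between these classes.

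The 5' lengths differed between the tRNAs. Gln-TTG peaked at 33 nt, the length named tiRNA, and tiRNA-1:33-chrM.Gln-TTG had 592, 1082 and 698 CPM with saline and 1134, 916 and 1219.9 CPM with nicotine. The group ranges overlapped, with saline 2 between nicotine 2 and nicotine 1. One base shorter, tRF-1:32-chrM.Gln-TTG had 454, 803 and 407 CPM with saline and 495, 769 and 715 CPM with nicotine, also with overlap. The 33 nt form took 54.4% to 69.6% of the reads of this pair, so it was the larger one in each library. Gln-TTG was the broadest tRNA, with 12 different 5' lengths. Its shorter 5' fragment tRF-1:22-chrM.Gln-TTG had 136, 207 and 126 CPM with saline and 165, 319 and 218 CPM with nicotine. Those of 14 and 16 nt had 58.7 to 98.1 CPM and 45.4 to 102 CPM over the 6 libraries.

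Fragments of Tyr-GTA and Pro-TGG were narrower. Tyr-GTA had 2 long 5' lengths of nearly equal level and a rare fragment of 16 nt. Of these, tRF-1:31-chrM.Tyr-GTA had 149, 207 and 301 CPM with saline and 297, 376 and 427 CPM with nicotine, and the groups overlapped only through saline 3 and nicotine 1. tRF-1:30-chrM.Tyr-GTA had 117, 181 and 267 CPM with saline and 341, 164 and 420 CPM with nicotine, where nicotine 2 lay inside the saline range. The 30 nt form took 44.0% to 47.0% of the reads of this pair with saline and 30.3% to 53.4% with nicotine. For Pro-TGG the main fragment was tRF-1:30-chrM.Pro-TGG, with 211, 246 and 233 CPM with saline and 132, 311 and 295 CPM with nicotine. Nicotine 1 lay below and the other nicotine libraries above the whole saline range. tRF-1:29-chrM.Pro-TGG had 77.4, 123 and 77.6 CPM with saline and 154, 106 and 139.9 CPM with nicotine, so in nicotine 1 the 29 nt form exceeded the 30 nt form and in the other 5 libraries it did not.

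The neighbouring Asn, Cys and Ala tRNAs each had a different length profile. Cys-GCA had its peak at 28 nt, and tRF-1:28-chrM.Cys-GCA, with 82.7, 149 and 82.4 CPM with saline and 143, 147 and 132 CPM with nicotine, took 54.5% to 94.4% of the 5' reads of its tRNA. Saline 2 lay above the 3 nicotine libraries and the other saline libraries lay below them. Asn-GTT had no single peak. Its fragments tRF-1:28-chrM.Asn-GTT, tiRNA-1:33-chrM.Asn-GTT and tRF-1:31-chrM.Asn-GTT had means of 81.9, 90.5 and 57.4 CPM with saline and 104, 81.5 and 102 CPM with nicotine. The last of these was highest in nicotine 1, at 176 CPM. In Ala-TGC the fragments tRF-1:30-chrM.Ala-TGC and tRF-1:22-chrM.Ala-TGC had 31.9 and 27.1 CPM with saline and 52.6 and 38.5 CPM with nicotine, and the class of 20 to 24 nt made up 36.9% of its 5' level. Ser-TGA, which reads the UCN serine codons, was the only tRNA of the 8 whose most abundant fragment by 6-library mean was short. This was tRF-1:23-chrM.Ser-TGA at 8.01 to 38.9 CPM. With nicotine, tRF-1:29-chrM.Ser-TGA had the higher mean, 25.3 CPM against 24.2 CPM. The single fragment of Glu-TTC, tRF-1:29-chrM.Glu-TTC, had 16.01, 12.95 and 9.70 CPM with saline and 22.02, 16.4 and 0 CPM with nicotine.

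By the mean over the 6 libraries, the length named tiRNA was the most abundant 5' length for Gln-TTG and for none of the other 4 tRNAs with a 5' fragment of that name. The most abundant one was 1 nt shorter than it for Ala-TGC, Cys-GCA and Pro-TGG and 5 nt shorter for Asn-GTT, where the 33 nt form had the higher mean with saline and the 28 nt form with nicotine. The tiRNA-named fragments of Ala-TGC, Cys-GCA and Pro-TGG had means over the 6 libraries of 6.30, 28.4 and 23.9 CPM, against 42.2, 123 and 238 CPM for the dominant lengths.

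**Figure D2:**
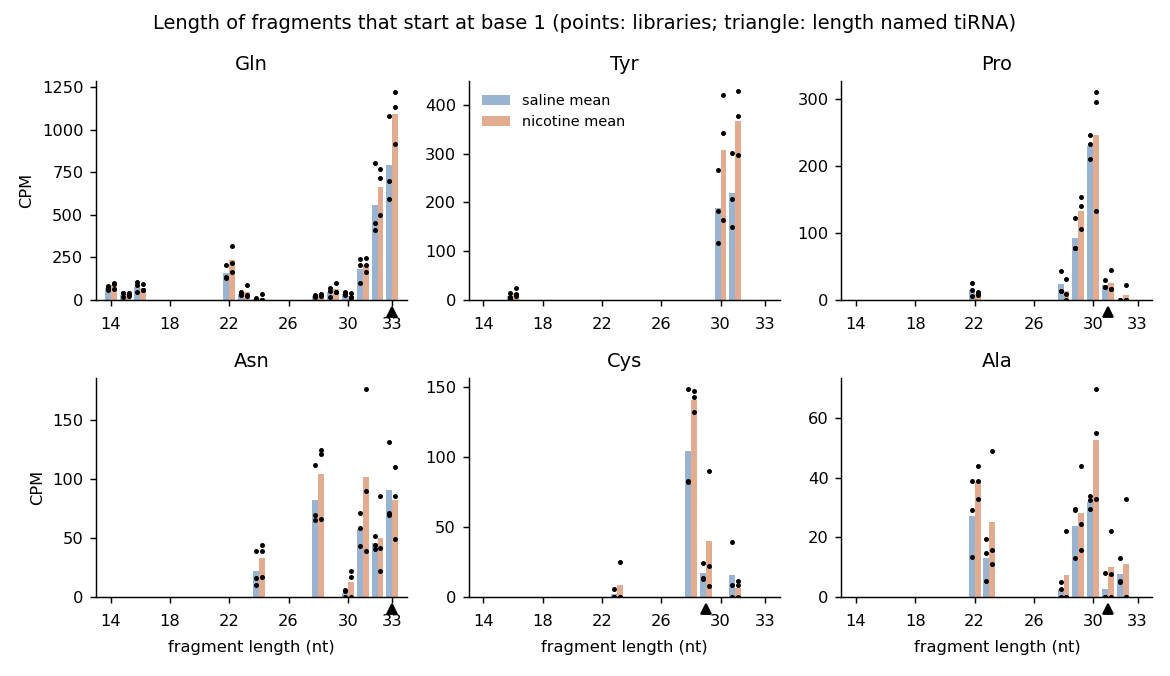
Level in CPM (y axis, its own scale in each panel) by length in nt (x axis) of fragments that start at base 1, for 6 tRNAs. Bars are group means, dots are the 3 libraries of each group and triangles mark the length named tiRNA. Gln peaks at 33 nt, Tyr at 31 and 30 nt, Pro at 30 nt and Cys at 28 nt in both groups.

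The 3' fragments, from the end of the tRNA on which the amino acid is loaded, were near the limit of detection. They came from Gln-TTG, Cys-GCA, Pro-TGG and Tyr-GTA, and the other 4 tRNAs had none in the list. Together they had 8, 10 and 9 reads in the saline libraries and 28, 2 and 4 reads in the nicotine libraries, or 43.3 CPM ± 21.7 and 119 CPM ± 164 (SD, n = 3 each). The nicotine mean was set by nicotine 1 at 308 CPM, while nicotine 2 at 16.4 CPM lay below each saline library. Of the 11, 10 were short fragments of 18 to 21 nt, and each of these reached 20 CPM in nicotine 1 alone, on 2 to 4 reads. Nicotine 1 was the shallowest library, and its part in the length of this list was not tested. The remaining one, tiRNA-30:69-chrM.Tyr-GTA, a 40 nt fragment, was read in all 6 libraries at 7.77 to 29.1 CPM, highest in saline 3.

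Trailers came from a single tRNA, Cys-GCA. tRF-+1:T15-chrM.Cys-GCA had 16.01, 58.3 and 24.2 CPM with saline and 110.1, 24.5 and 15.5 CPM with nicotine, and its form of 14 nt had 0 to 66.1 CPM. Saline 2 and nicotine 1 were the high libraries for both forms, and the groups overlapped. Of the Cys-GCA reads, 40.0% in nicotine 1 and 91.7% in nicotine 2 were 5' fragments, a wider spread than for the other 7 tRNAs.

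**Figure D3:**
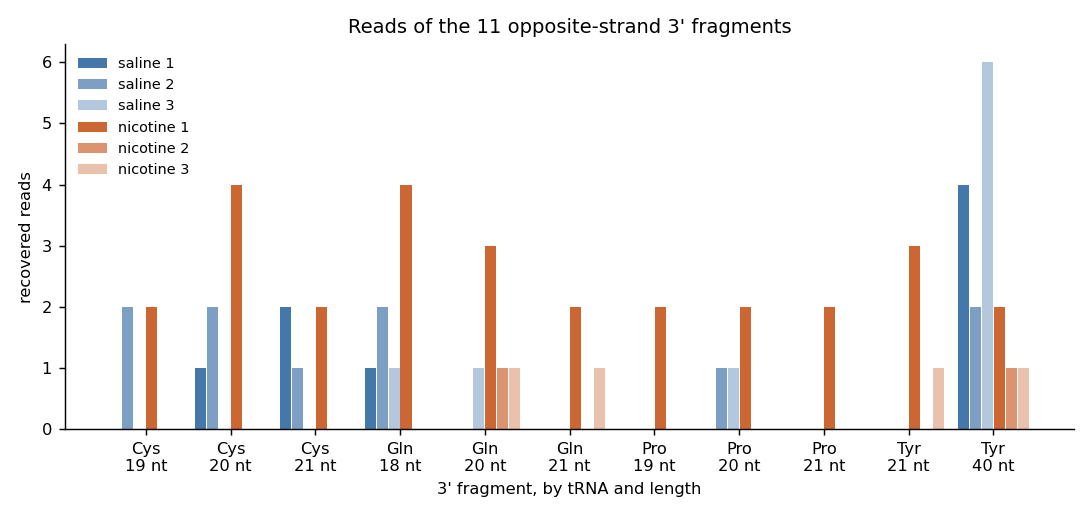
Whole reads (y axis) of the 11 listed 3' fragments of opposite-strand tRNAs (x axis, amino acid and length) in the 6 libraries, blue for saline and orange for nicotine. Nicotine 1 has 2 to 4 reads of each, and the 40 nt Tyr fragment is the only one read in every library.

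The other mitochondrial tRNAs, those cut from the heavy-strand transcript, gave 77 listed fragments of 13 tRNAs and a different mixture of kinds. Fragments of 28 to 33 nt from base 1 took 21.3% to 32.99% of their reads, against 77.0% to 85.6% for the opposite-strand tRNAs, and those of 20 to 24 nt took 41.3% to 55.6%, against 7.57% to 12.5%. The short class rested on 1 tRNA, Ser-GCT. Without it the heavy-strand shares were 29.4% to 61.0% for the long class and 2.24% to 4.43% for the class of 20 to 24 nt. The latter then lay below the opposite-strand share. The 3' fragments took 10.7% to 32.3% of the heavy-strand reads and 0.366% to 6.36% of the opposite-strand reads. Without Trp-TCA, which gave most of them, they took 5.06% to 8.35% of the heavy-strand reads. In nicotine 1 the highest 3' shares of both sets were found. These shares are a description of the 6 libraries, and no test was made on the sets.

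**Figure D4:**
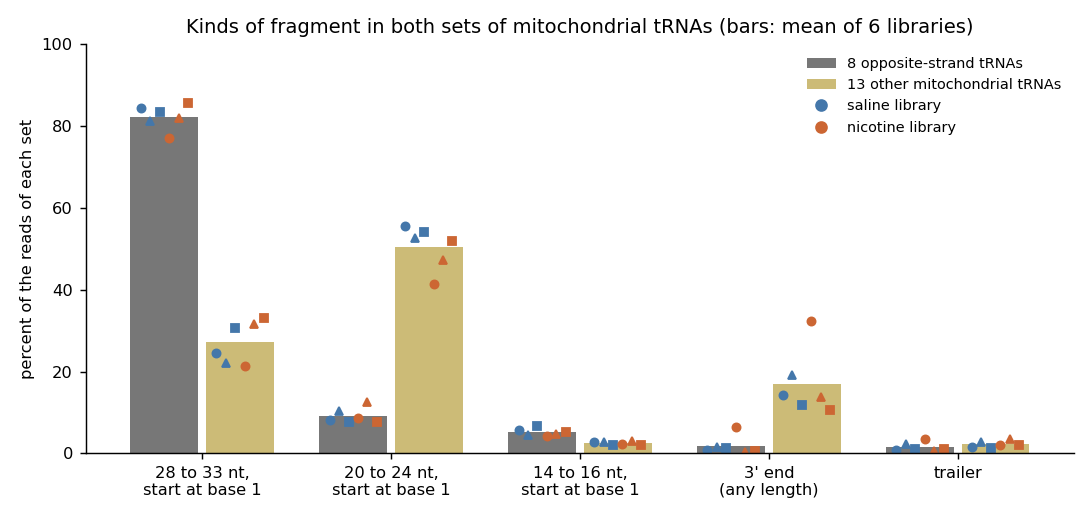
Percent of the reads of the 8 opposite-strand tRNAs (grey) and of the 13 other mitochondrial tRNAs (tan) by kind of fragment (x axis). Bars are means of the 6 libraries and points are libraries, blue for saline and orange for nicotine. In each library the long 5' class is the larger share in the grey set and the 20 to 24 nt class and the 3' fragments are larger in the tan set. Without Ser-GCT (not drawn) the 20 to 24 nt share of the tan set is 2.24% to 4.43%, below that of the grey set.

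No opposite-strand tRNA passed the threshold between saline and nicotine. Fragments were summed per tRNA, and limma on log2(CPM + 1) was fitted over 66 parent tRNAs, nuclear ones included, of which 0 (0%) passed a Benjamini-Hochberg adjusted p of 0.05. The smallest p among the 8 belonged to Tyr-GTA, with 280, 408 and 611 CPM with saline and 705, 572 and 870 CPM with nicotine. Nicotine 2 lay below saline 3, so the groups overlapped. Its log2 fold change was 0.77 (SE 0.35, 95% interval 0.08 to 1.47, unadjusted p = 0.0290, adjusted p = 0.390 in limma). It was 0.50 without saline 1 and 1.06 without saline 3, and the unadjusted p ranged from 0.00682 to 0.155 with a library left out. Over all alternatives run the adjusted p of Tyr-GTA lay between 0.226 (limma without saline 3) and 0.871 (DESeq2 on the recovered reads). At an unadjusted p under 0.05 there was 1 of 8 higher in nicotine, beside 6.06% of all parent tRNAs, and 0 of 8 lower, beside 1.52%. Under TMM scaling, in edgeR and in DESeq2 the unadjusted p of Tyr-GTA was 0.119, 0.126 and 0.241, so 0 of 8 remained. Over all parent tRNAs, the 4 higher and 1 lower became 0 and 5, 0 and 3, and 0 and 5.

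Ala-TGC was the one tRNA of the 8 whose groups did not overlap, with 93.4, 117 and 116 CPM with saline and 231, 139 and 148 CPM with nicotine. The sum of nicotine 1 includes tRF-1:28-, tiRNA-1:31- and tRF-1:32-chrM.Ala-TGC, at 22.02, 22.02 and 33.03 CPM. These fragments reached 20 CPM in that library alone, and the sum was not compared without them. Among all parent tRNAs 9.09% were higher without overlap and 1.52% lower. The log2 fold change of Ala-TGC was 0.63 (SE 0.51, 95% interval -0.37 to 1.63, adjusted p = 0.402 in limma), and 0.40 without nicotine 1. These sums rest on 17 to 35 reads per library. Cys-GCA had 144, 330 and 141 CPM with saline and 440, 294 and 186 CPM with nicotine, with a log2 fold change of 0.61 (SE 0.45). For Gln-TTG, by far the best covered, the log2 fold change was 0.40 (SE 0.31, 95% interval -0.22 to 1.02), and its saline 2 at 2694 CPM lay within the nicotine range of 2345 to 2743 CPM. Asn-GTT, Ser-TGA and Pro-TGG had 0.33, 0.29 and 0.24. The value of Glu-TTC was -0.89 (SE 1.39) with group means of 12.9 and 12.8 CPM, and 0.55 without nicotine 3, the library at 0 reads. The median over the 8 tRNAs was 0.36 and that over all 66 was 0.45, so the 7 values above 0 are to be read beside the 55 of 66 above 0 among all.

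Summed by tRNA and kind, 142 families were tested and 0 (0%) passed in limma. Of the 13 opposite-strand families the 5' fragments of Tyr-GTA had the smallest p, with 415 CPM ± 157 with saline and 690 CPM ± 149 with nicotine (SD, n = 3 each) and a log2 fold change of 0.78 (SE 0.32, unadjusted p = 0.0287, adjusted p = 0.504 in limma). They made up 1 of 13 at an unadjusted p under 0.05 and higher in nicotine, beside 9.15% of all families, with 0 lower, beside 0%. Under TMM scaling, in edgeR and in DESeq2 there were 0 of 13, and the 13 higher and 0 lower of all families became 3 and 4, 3 and 3, and 0 and 5. The 5' fragments of Ala-TGC, 1 of 13, were higher in nicotine without overlap, beside 15.5% of all families, and 0 were lower, beside 0.704%. This is the same sum as for the parent tRNA, with the same limit. The 5' fragments of Cys-GCA, Gln-TTG, Asn-GTT, Ser-TGA and Pro-TGG had log2 fold changes of 0.50, 0.38, 0.33, 0.29 and 0.18. The rarer kinds had intervals too wide to give a direction. For the 3' fragments of Gln-TTG the value was 1.60 (95% interval -0.96 to 4.16), for those of Tyr-GTA 0.27, of Pro-TGG 0.21 and of Cys-GCA -0.58, and for the Cys-GCA trailers 0.39 (-1.21 to 1.99).

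**Figure D5:**
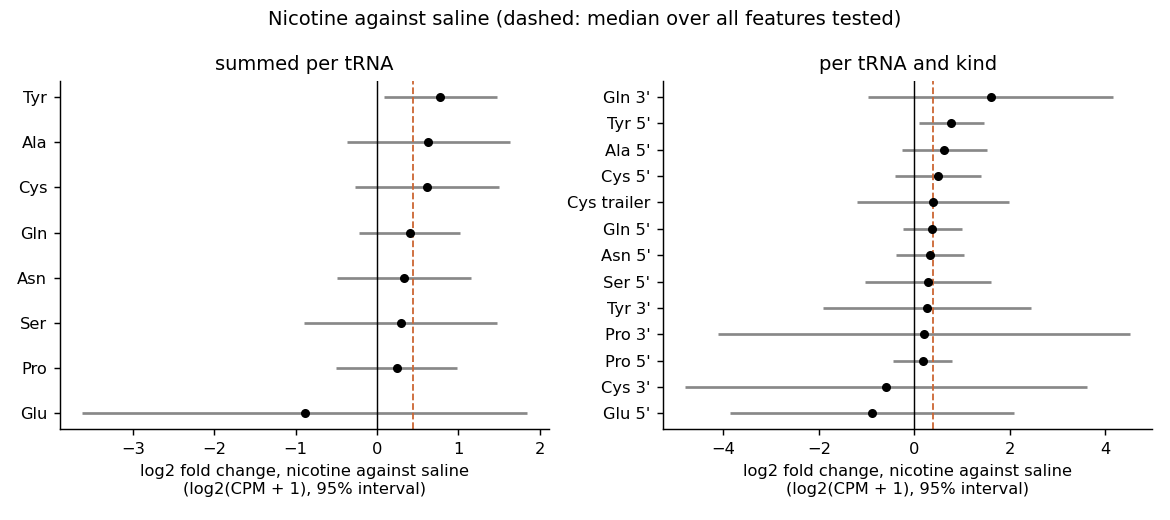
Log2 fold change of nicotine against saline on log2(CPM + 1) with 95% intervals from limma (x axis), per tRNA (left) and per tRNA and kind (right). Dashed lines mark the median over all 66 parent tRNAs and all 142 families. The intervals of Tyr and of its 5' fragments lie above 0, and all other intervals include 0.

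Of the 58 fragments, 50 passed the filter of at least 1 CPM in at least 3 libraries, and none of them passed an adjusted p of 0.05 among the 586 fragments tested (0%). The other 8 had reads in only 1 or 2 libraries and were not tested. None had an unadjusted p under 0.05 in limma, beside 5.12% of all fragments higher and 1.88% lower, and none did under TMM scaling or in edgeR or DESeq2 on the recovered reads. There was 1 of 50 with scaling to the listed reads, beside 59 of 586 over all fragments, and 1 of 28 with the filter of 20 CPM, beside 30 of 408. There was 1 of 48 without saline 3, beside 34 of 570, 1 of 44 without nicotine 1, beside 27 of 571, and 1 of 50 without nicotine 2, beside 36 of 581. In each of these settings the member was higher in nicotine. Over all fragments, the 30 higher and 11 lower at that p became 8 higher and 24 lower under TMM scaling, and 10 and 21 in edgeR and 2 and 16 in DESeq2. The groups did not overlap for 2 of the 50, both higher in nicotine, beside 12.6% of all fragments, and none was lower without overlap, beside 1.54%. Both were rare. tRF-1:29-chrM.Ser-TGA had 10.7, 12.95 and 14.5 CPM with saline and 44.0, 16.4 and 15.5 CPM with nicotine. These were 4, 2 and 3 reads with saline and 4, 2 and 2 reads with nicotine. tRF-55:74-chrM.Gln-TTG had 1 read in the saline and 5 reads in the nicotine libraries. The median log2 fold change of the 50 was 0.28, as it was for all 586 fragments, and 33 of the 50 lay above 0, against 378 of the 586.

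Among the fragments with the smallest p, those with many reads were 5' fragments of Tyr-GTA and Gln-TTG. tRF-1:31-chrM.Tyr-GTA had a log2 fold change of 0.78 (SE 0.40, unadjusted p = 0.0521, adjusted p = 0.657 in limma). It was followed by tRF-55:74-chrM.Gln-TTG, tRF-1:30-chrM.Tyr-GTA at 0.68 (SE 0.42), tRF-1:22-chrM.Gln-TTG at 0.56 (SE 0.42) and tiRNA-1:33-chrM.Gln-TTG at 0.50 (SE 0.38). On the lower side the smallest p belonged to tRF-1:28-chrM.Pro-TGG at -1.64 (SE 1.28) and tRF-1:30-chrM.Gln-TTG at -0.81 (SE 0.72). The former had 13.3, 12.95 and 43.6 CPM with saline and 0, 8.18 and 31.1 CPM with nicotine, and the latter 29.4, 32.4 and 43.6 CPM and 11.01, 16.4 and 38.9 CPM, both with overlap. tRF-1:32-chrM.Ala-TGC, tRF-1:22-chrM.Ser-TGA and tRF-1:29-chrM.Glu-TTC followed with fitted values of -1.31, -1.05 and -0.89, and each had 0 reads in at least 1 nicotine library. For the first 2 the sign goes against the group means, which were 7.71 CPM with saline and 11.01 CPM with nicotine for Ala-TGC and 6.82 and 11.01 CPM for Ser-TGA, and for Glu-TTC the means were nearly equal. No direction can be read from these 3. The dominant fragments tRF-1:28-chrM.Cys-GCA, tRF-1:28-chrM.Asn-GTT and tRF-1:30-chrM.Ala-TGC had log2 fold changes of 0.48, 0.32 and 0.64, and tRF-1:30-chrM.Pro-TGG had 0.00 (SE 0.41).

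The direction of these values depended on the scaling. With TMM factors, which align the bulk of the fragments between libraries, the median over all fragments went from 0.28 to -0.02 and that of the 50 from 0.28 to -0.04, with 23 of the 50 above 0 in place of 33. Scaled to the listed reads the medians were both 0.52. Under TMM scaling Tyr-GTA had a log2 fold change of 0.45, Ala-TGC 0.31, Cys-GCA 0.29, Gln-TTG 0.08 and Asn-GTT 0.00, while Pro-TGG at -0.08 and Ser-TGA at -0.03 turned negative. The TMM factors were 0.736, 0.988 and 0.981 with saline and 1.27, 1.01 and 1.10 with nicotine. Values are divided by them, so those of each saline library rise and those of each nicotine library fall. The sum of the 58 fragments, without overlap as CPM, was not compared on this scaling. Its lack of overlap therefore cannot be carried over to it.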

How the data were processed

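RNA from 6 hippocampi received small RNA adapters, was copied to cDNA, amplified and selected by size on a gel, and was sequenced on a NextSeq instrument, per the labels' protocols. FastQC, cutadapt and Bowtie were used, per the submitters' processing notes, which leave out their versions. The sources used here do not give a genome build, a tRNA annotation or how reads shared by near-identical tRNAs were divided. CPM values for 615 fragments per library were deposited by the authors. The headers of 2 files name no unit, and these were read as CPM from their values. Every value (100%) was a whole number of reads within 0.001 reads, which gave the reads and library totals.

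The kind of each fragment was read from its name. limma 3.58.1 (trend, robust, R 4.3.3) on log2(CPM + 1) was fitted over all features that reached 1 CPM in 3 or more libraries. Its p-values are two-sided and were adjusted by Benjamini-Hochberg over the whole table. A fold change is on that scale. It understates that of low fragments read in every library, and where a library is at 0 it can exceed the fold of the group means or differ from it in sign. The alternatives were edgeR 4.0.16 and DESeq2 1.42.0 on the recovered reads, other scalings, pseudocounts of 0.5 and 10, no filter and one of 20 CPM, a replicate block and each library left out. The fit was checked on simulated data with changes much larger than those fitted for the 8 tRNAs, so the check does not cover changes of their size. Groups and numbers came from the sample titles. The p-values rest on the spread between these libraries, which limma pools over features of similar level. An SE is thus not the spread of the named tRNA or fragment alone. Ala-TGC, with the same values, had an SE of 0.51 as a parent tRNA and 0.42 as a family. Libraries of a group differed from each other by 11.9 to 24.4 in chi-square over degrees of freedom, so none was treated as a duplicate. The Wilson intervals of shares cover counting error only, as no molecular identifiers are described, and limma's intervals come from the pooled spread between libraries. Members and lists were chosen with earlier results of these data known. Named fragments were, by rule, the most abundant of each kind per tRNA and the 5 with the smallest p in each direction. The other fragments described, among them tRF-1:32-chrM.Gln-TTG, tRF-1:29-chrM.Pro-TGG, tRF-1:31- and tiRNA-1:33-chrM.Asn-GTT, tRF-1:22-chrM.Ala-TGC, tRF-1:29-chrM.Ser-TGA and the remaining tiRNA-named ones, were chosen after their values were seen.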

Additional observations from a re-analysis of the deposited data

How the results depend on the processing

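No opposite-strand fragment, family or tRNA passed an adjusted p of 0.05 under any alternative run. Over all features, the count of fragments past it went from 0 to 1 with the replicate block and ranged from 0 to 5 with a library left out (1 without saline 2, 5 without nicotine 3). For families it ranged from 0 to 2 (2 without nicotine 3). The difference between groups in the share of listed reads, 0.343 percentage points, was 0.690 without glycine fragments and 0.1205 as a percent of the library total. Of 41 log2 fold changes followed, 20 kept their sign under all alternatives run, and the cause of the reversals was not tested. Under TMM scaling the reversed values were -0.080 for Pro-TGG, -0.031 for Ser-TGA and for its 5' fragments, -0.15 for 5' Pro-TGG, -0.043 for 3' Tyr-GTA, -0.019 for the 15 nt Cys-GCA trailer and -0.32 for tRF-1:30-chrM.Pro-TGG. In edgeR they were -0.067 for Pro-TGG, 0.69 for 3' Cys-GCA, -0.12 for 5' Pro-TGG, 0.27 and -0.035 for the 22 and 23 nt Ser-TGA fragments, -0.0058 for tRF-1:28-chrM.Asn-GTT, -0.18 for tRF-1:30-chrM.Pro-TGG, and 1.03, 0.60 and 0.66 for the most abundant 3' fragments of Cys-GCA, Pro-TGG and Gln-TTG. In DESeq2 they were, in the same order, -0.079, 0.78, -0.13, 0.31, -0.096, -0.023, -0.20, 1.17, 0.65 and 0.74, with -0.00013 for Asn-GTT and 0.060 for tRF-1:32-chrM.Ala-TGC. A pseudocount of 10 gave 0.12 for 3' Cys-GCA and 0.30, 0.13 and 0.11 for the same 3' fragments, and one of 0.5 gave -0.055 for 3' Pro-TGG. With a library left out, the ranges that crossed 0 were -1.71 to 0.55 for Glu-TTC and its fragment, -0.34 to 0.70 for Ser-TGA and its 5' fragments, -1.96 to 0.49 for 3' Cys-GCA, -0.39 to 1.01 for the Cys-GCA trailers, -0.52 to 0.86 for that of 15 nt, -0.70 to 1.22 for 3' Pro-TGG, -0.46 to 0.84 for 3' Tyr-GTA, -0.23 to 0.84 for tRF-1:23-chrM.Ser-TGA, -0.21 to 0.40 for tRF-1:30-chrM.Pro-TGG, and -1.01 to 0.85, -1.22 to 0.45 and -2.74 to 0.0046 for the same 3' fragments. The share difference ranged from 0.255 to 0.420 points. Same-numbered libraries deviated together with correlations of 0.0868, 0.109 and 0.161, each the highest for its libraries, a hint from the data only, and the first is too low for the numbers to pair the samples. At 6 or fewer reads in each library, as for every 3' fragment, no direction can be read.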
